A study of Mus musculus with 7 samples.

Results

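The genes described here are 10 receptors that steer myeloid cells along chemical gradients: Fpr1, Fpr2, C5ar1, C3ar1, Cxcr2, Cxcr4, Ccr1, Ccr2, Ltb4r1 and Ptafr. They were chosen by name from the 28786 genes of the deposited count table. Fpr1, Fpr2 and C5ar1 were picked because their counts differed between the groups, so their values are a description and carry no test. The other 7 were listed for their function, although earlier results of these data were known when the list was made.

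Transcripts were counted in haematopoietic stem cells (HSCs), the marrow cells that give rise to all blood lineages, from mice with MC38 tumours and from control mice. MC38 cells derive from a colon tumour of a C57BL/6 mouse. The MC38 group holds 4 libraries labelled MC38 colon cancer C57BL/6J, and the control group holds 2 usable libraries from normal mice. Both groups share an age of 6 to 8 weeks, marrow flushed from leg bones, 1500 sorted cells per library and 12 PCR cycles. The labels and design text state no sort gates, no site or age of the tumours and no pooling of mice. The question, from the title and design text, is how tumours bias HSCs toward myeloid output, with interferon gamma and Meis1 named.

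Chemoattractant receptors are 7-transmembrane proteins that couple to inhibitory G proteins and turn a gradient of formyl peptides, complement fragments, chemokines or lipids into directed movement. In marrow, Cxcr4 holds stem cells and neutrophils near Cxcl12-producing stroma, whereas Cxcr2 draws mature neutrophils into the blood. Ccr2 performs a like release function for monocytes. Formyl peptide, C5a and leukotriene B4 receptors appear late in neutrophil maturation and guide cells at sites of infection or injury.

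The MC38 libraries held 13368238 to 17657037 counts, and the controls 12131546 and 12306066. The third control column was left out of all values. Its ratio to the sum of the other controls lay between 0.312 and 0.382 for the 10 receptors (median 0.353 across 9652 well-counted genes), so it followed them too closely to be an independent library. The 12 stem cell markers examined (Procr, Slamf1, Kit and Hlf among them) summed to 1584 to 1797 CPM in MC38 libraries and to 1563 and 1811 CPM in controls, where CPM is the depth-normalised count after TMM scaling. Neutrophil markers were also abundant: 12 such genes summed to 54390 to 61880 CPM in MC38 libraries, against 28170 and 28430 CPM in controls, a 2.06-fold difference of the means. Bulk libraries cannot tell more cells of a type from more RNA per cell, here and in every value below. MC38 replicates 1 and 3 had the most opposed deviations from the group mean, which correlated at r = -0.819 over all 14226 genes tested. Deviations from a shared mean cancel out for each gene, so negative r values arise without any structure. Mitochondrial transcripts took 2.01 to 3.14% of counts in MC38 libraries, lowest in replicate 1 and highest in replicate 3, and 1.71 and 1.75% in controls.

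Upstream sequence is shown for the 4 receptors with the largest fitted differences, Fpr1, Fpr2, C5ar1 and Ccr1, so that what they share can be read directly. Each is the 250 bases before the RefSeq start on GRCm38.p6, 5′ to 3′ on the gene's own strand. RefSeq and GENCODE starts differ, so 202 bases of the C5ar1 window and 233 of the Ccr2 window searched lie inside the GENCODE gene. The windows are chr17:17883940-17884189 (minus strand), chr17:17887574-17887823 (plus), chr7:16259339-16259588 (minus) and chr9:123968693-123968942 (minus). Capitals mark matches to the core of the myeloid factor PU.1, GAGGAA, and to the interferon gamma activated site, TTCNNNGAA.
Fpr1: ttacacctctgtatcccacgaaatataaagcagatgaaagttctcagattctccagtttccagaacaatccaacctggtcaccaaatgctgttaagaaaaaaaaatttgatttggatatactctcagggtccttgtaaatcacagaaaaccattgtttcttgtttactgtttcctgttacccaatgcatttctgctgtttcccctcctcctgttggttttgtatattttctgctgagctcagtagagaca
Fpr2: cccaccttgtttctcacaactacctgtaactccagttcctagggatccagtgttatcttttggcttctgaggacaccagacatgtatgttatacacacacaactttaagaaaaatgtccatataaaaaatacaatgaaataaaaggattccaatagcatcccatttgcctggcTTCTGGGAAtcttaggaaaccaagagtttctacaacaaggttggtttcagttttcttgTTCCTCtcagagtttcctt
C5ar1: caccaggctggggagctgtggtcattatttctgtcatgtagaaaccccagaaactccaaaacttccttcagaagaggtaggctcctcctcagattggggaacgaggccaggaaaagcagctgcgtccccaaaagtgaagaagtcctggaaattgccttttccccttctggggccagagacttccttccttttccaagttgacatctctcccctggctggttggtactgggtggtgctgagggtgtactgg
Ccr1: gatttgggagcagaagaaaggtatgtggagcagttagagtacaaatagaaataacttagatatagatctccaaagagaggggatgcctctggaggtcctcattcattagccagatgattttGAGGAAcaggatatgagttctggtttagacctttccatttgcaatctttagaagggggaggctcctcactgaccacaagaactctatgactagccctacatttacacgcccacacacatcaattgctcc
Both strands were searched, also for a C/EBP core (TTGCNNAA) and the interferon-stimulated response element. The PU.1 core was present upstream of 5 of the 10 receptors, namely Fpr2, Cxcr2, Ccr1, Ltb4r1 and Ptafr, and in 23.3% of 32851 windows of this length. The activated site was found only upstream of Fpr2 among the 10, and in 7.02% of all windows. None of the 10 windows held the C/EBP core or the response element, which occurred in 9.56% and 2.98% of all windows. Fpr1 and C5ar1 had no match of any motif, and most of the C5ar1 window lay inside the GENCODE gene. A link between motifs and the group differences was not tested.

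Formyl peptide receptors bind peptides that begin with N-formyl methionine, shed by bacteria and damaged mitochondria. Fpr1 (ENSMUSG00000045551, chr17:17876471-17883940, mm10) was at 53.1, 53.1, 63.2 and 47.1 CPM in the MC38 libraries, against 15.0 and 23.4 CPM in controls. Fpr2, its neighbour on the opposite strand, which also binds lipid and peptide mediators such as annexin A1, was at 88.8, 83.6, 94.5 and 108 CPM in MC38, against 39.4 and 44.7 CPM in controls. For both genes the MC38 libraries lay above the controls with no overlap, and the fitted folds were 2.82 and 2.23. They lie 3.88 kb apart. Sequence sharing differed between them. A stretch of 50 bases found in another gene's transcript made up 31.5% of all such stretches in Fpr2, mostly from copies annotated as Gm5966 and also from the overlapping Fpr3, against 0.0784% in Fpr1. Reads in those parts may have been dropped or assigned elsewhere, so the Fpr2 level is uncertain.

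Complement receptors bind the fragments C5a and C3a. C5ar1 (ENSMUSG00000049130, chr7:16246743-16259540) was at 102, 99.1, 140 and 150 CPM in MC38 libraries, against 46.9 and 51.4 CPM in controls, a fitted 2.49-fold difference. MC38 replicates 3 and 4 were the highest, and every MC38 library was above both controls. C3ar1, the C3a receptor of monocytes, macrophages and mast cells, had 8, 7, 0 and 1 counts in the MC38 libraries, against 0 and 16 in controls. These counts are near the floor in both groups, and C3ar1 was the 1 member of 10 that did not pass the filter on low counts. C5ar2, which also binds C5a and lies 2.59 kb from C5ar1, was at 13.6 ± 2.75 CPM in MC38 and 7.56 ± 2.14 CPM in control libraries (SD, n = 4 and 2; edgeR adjusted p = 0.247).

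**Figure D1:**
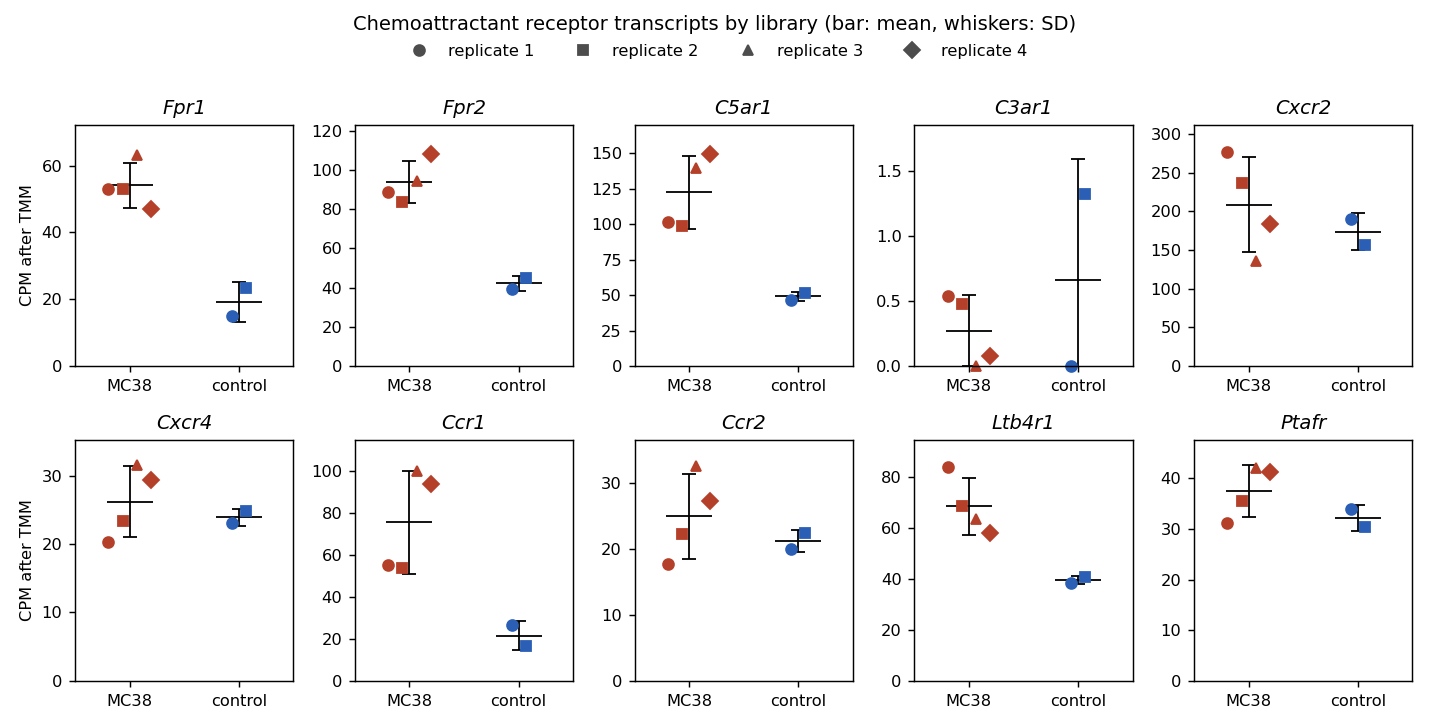
Transcript level of the 10 receptors in each library (y axis: CPM after TMM scaling, from 0), MC38 left and control right; symbols give the replicate, the bar the mean and the whiskers the SD (n = 4 and 2). Fpr1, Fpr2, C5ar1, Ccr1 and Ltb4r1 show no overlap between the groups, while the Cxcr2 points in MC38 run from 136 to 277 CPM around the controls at 157 and 190 CPM.

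The remaining receptors allowed a test of whether levels differed in tumour-bearing mice. Of the 6 tested receptors that were not picked for their pattern, Ccr1 was called higher in MC38 and none was called lower (edgeR, adjusted p under 0.05). Over all 14226 genes tested, 1.04% were called higher and 0.569% lower. At an unadjusted p under 0.05, 2 of the 6 were higher and 0 lower, against 9.26% and 8.22% of all genes. DESeq2, which also tested C3ar1, called 2 of 7 higher and 0 lower, against 2.95% and 1.83% of the genes it tested. With limma-voom 0 of the 6 were called in either direction, against 0.696% and 0.576%. Every MC38 library lay above both controls for Ccr1 and Ltb4r1, a separation in that direction seen in 14.0% of all genes. The labels do not say that libraries came from separate animals, so these p-values measure the spread between libraries, which may be technical.

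Ccr1 binds the inflammatory chemokines Ccl3, Ccl5, Ccl6 and Ccl9 in mice and is carried by neutrophils and monocytes. It was at 55.3, 53.7, 100.2 and 93.7 CPM in the MC38 libraries, against 26.5 and 16.7 CPM in controls. The lowest MC38 library was above the higher control, and replicates 3 and 4 stood above replicates 1 and 2. Ccr1 (ENSMUSG00000025804, chr9:123962124-123968692) rose 3.50-fold, a log2 fold change of 1.81 (SE 0.33, 95% interval 1.06 to 2.56, edgeR adjusted p = 0.0305). The call was lost without control replicate 1 (adjusted p = 0.148), control replicate 2 (0.165) or MC38 replicate 4 (0.085), and with limma-voom (0.0737). Its fitted log2 fold change stayed between 1.37 and 2.18 over all alternatives.

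Ccr2, the receptor that releases monocytes from marrow in answer to Ccl2, was at 17.7, 22.3, 32.6 and 27.4 CPM in the MC38 libraries, against 20.1 and 22.5 CPM in controls. The groups overlapped, and MC38 replicate 1 was the lowest of all. Its log2 fold change of 0.23 did not pass the test (95% interval -0.39 to 0.85, edgeR adjusted p = 0.723). The interval leaves room for changes between 0.764-fold and 1.81-fold.

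Cxcr2, the receptor for Cxcl1, Cxcl2 and related neutrophil chemokines, had the highest mean CPM of the 10 in both groups, although C5ar1 was above it in MC38 replicate 3. It was at 277, 237, 136 and 184 CPM in the MC38 libraries, against 190 and 157 CPM in controls. MC38 replicates 1 and 2 were above both controls and replicate 3 below both, a spread of 2.03-fold within the group. The log2 fold change of 0.26 did not pass the test (95% interval -0.29 to 0.82, edgeR adjusted p = 0.640), and was 0.09 without MC38 replicate 1. Cxcr1, a second receptor of this kind 30.5 kb away, had 61, 36, 74 and 65 counts in MC38 libraries, against 7 and 4 counts in controls. The difference in Cxcr1 did not pass over all genes (edgeR adjusted p = 0.089).

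Cxcr4, the Cxcl12 receptor, was at 20.3, 23.4, 31.5 and 29.4 CPM in the MC38 libraries, against 23.0 and 24.8 CPM in controls. Both controls lay inside the MC38 range. Its log2 fold change was 0.13 (95% interval -0.42 to 0.68, edgeR adjusted p = 0.840), so a change beyond 1.60-fold up or 0.750-fold down lies outside the interval. The ratio of Cxcr2 to Cxcr4 counts, which needs no library scaling, was 13.6, 10.1, 4.32 and 6.25 in the MC38 libraries, against 8.26 and 6.32 in controls. On the log2 scale it averaged 2.97 ± 0.73 in MC38 and 2.85 ± 0.27 in controls (SD, n = 4 and 2), a difference of 0.11 (exact permutation test over 15 splits, two-sided, p = 0.8, smallest possible p = 0.0667). The direction turned to -0.15 without MC38 replicate 1, -0.01 without MC38 replicate 2 and -0.08 without control replicate 2.

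Lipid mediators are sensed by Ltb4r1, the high-affinity leukotriene B4 receptor of neutrophils, and by Ptafr, the receptor for platelet-activating factor. Ltb4r1 was at 83.6, 68.4, 63.3 and 57.9 CPM in the MC38 libraries, against 38.3 and 40.5 CPM in controls, with no overlap. Its log2 fold change of 0.79 (SE 0.19, 95% interval 0.37 to 1.21) did not pass over all genes with edgeR (adjusted p = 0.069). With DESeq2 the adjusted p was 0.00395, and over all alternatives it ran from 0.00395 to 0.331. Ptafr was at 31.2, 35.5, 42.1 and 41.3 CPM in the MC38 libraries, against 34.0 and 30.4 CPM in controls. Those groups overlapped, and the log2 fold change was 0.22 (95% interval -0.23 to 0.67, edgeR adjusted p = 0.626).

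**Figure D2:**
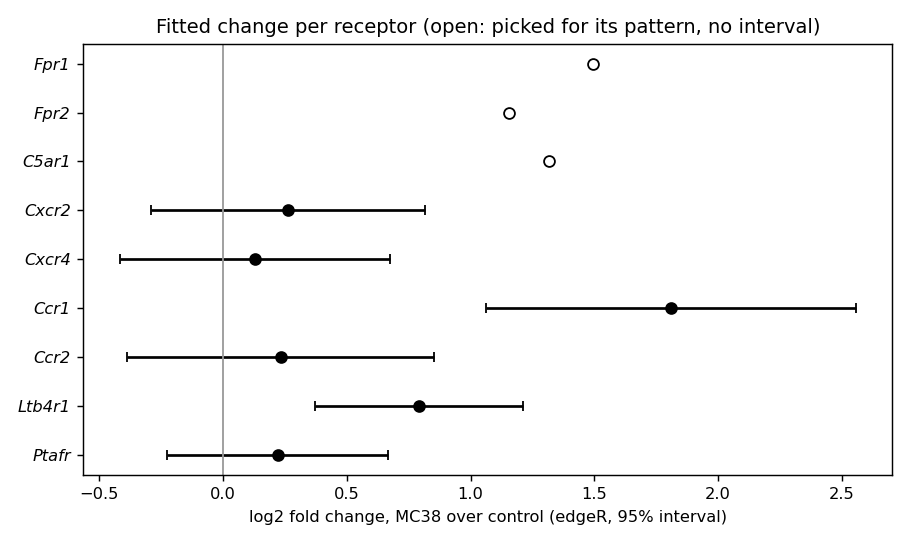
Fitted log2 fold change, MC38 over control, of the 9 receptors that passed the count filter, with 95% intervals from edgeR for the 6 not picked for their pattern (filled) and none for Fpr1, Fpr2 and C5ar1 (open). The intervals of Ccr1 and Ltb4r1 lie above 0, and those of Cxcr2, Cxcr4, Ccr2 and Ptafr include 0.

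Within the MC38 group the receptors did not vary alike. C5ar1, Ccr1, Ccr2, Cxcr4, Ptafr and Fpr2 had their highest values in replicates 3 and 4, whereas Cxcr2 and Ltb4r1 were highest in replicates 1 and 2. The 10 receptors together summed to 729, 676, 703 and 739 CPM in the MC38 libraries, against 434 and 412.5 CPM in controls. Cxcr2 made up 38.0, 35.0, 19.4 and 24.9% of that sum in MC38, against 43.9 and 38.0% in controls. Replicates 3 and 4 were also the MC38 libraries with the highest mitochondrial shares, 3.14 and 2.88%, and the part of this in the receptor values was not tested.

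Scaled by length, the order of levels also differed between the groups. In MC38 libraries Fpr2 (72.4 ± 8.23 CPM per kilobase of exon) and Cxcr2 (68.4 ± 20.1) had the highest means, with overlapping ranges (SD, n = 4). Ltb4r1 (49.0 ± 7.95), C5ar1 (47.7 ± 10.1) and Fpr1 (40.9 ± 5.04 CPM per kilobase) followed, and their ranges overlapped with each other and with that of Cxcr2, which was 44.7 CPM per kilobase in replicate 3. Below them came Ccr1 at 26.7 ± 8.71, Cxcr4 at 14.5 ± 2.87, Ptafr at 10.3 ± 1.41 and Ccr2 at 3.70 ± 0.95 CPM per kilobase, with Cxcr4 and Ptafr overlapping, and C3ar1 at no more than 0.125. In controls Cxcr2 alone led at 57.0 ± 7.82 CPM per kilobase, ahead of Fpr2 at 32.5 ± 2.91 and Ltb4r1 at 28.3 ± 1.13 (SD, n = 2). C5ar1 at 19.1 ± 1.25, Fpr1 at 14.5 ± 4.53, Cxcr4 at 13.2 ± 0.68, Ptafr at 8.85 ± 0.71, Ccr1 at 7.63 ± 2.47 and Ccr2 at 3.15 ± 0.25 CPM per kilobase came next. The control ranges of Fpr1 and Cxcr4 overlapped, as did those of Ptafr and Ccr1. Ccr1 was 6th of the 10 in MC38 and 8th in controls, and the change of order itself was not tested.

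**Figure D3:**
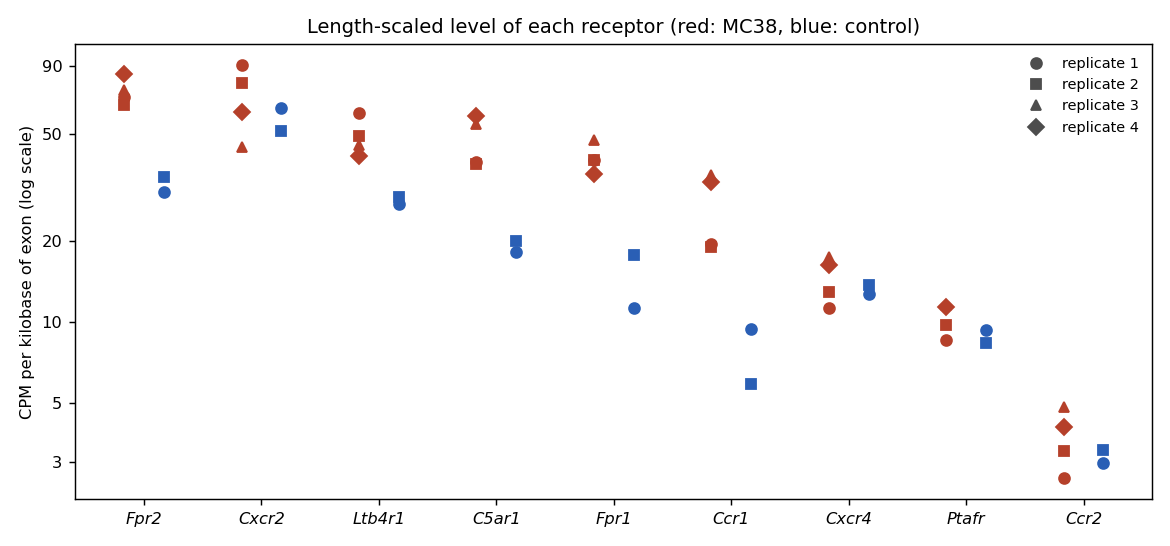
Level of 9 receptors in CPM per kilobase of exon (log axis), ordered by the MC38 mean, with MC38 libraries in red at the left of each pair and controls in blue at the right; symbols give the replicate. Fpr2 and Cxcr2 have the highest MC38 means, but the Cxcr2 range also overlaps those of Ltb4r1, C5ar1 and Fpr1; in both controls Cxcr2 lies above Fpr2.

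The neutrophil markers were higher in MC38 libraries, whereas Cxcr2, Cxcr4, Ccr2 and Ptafr overlapped between the groups. The neutrophil list summed to 61880, 59060, 54390 and 57470 CPM in MC38 replicates 1 to 4. C5ar1, Ccr1 and Fpr2 were highest in replicates 3 and 4, and Cxcr2 and Ltb4r1 in replicates 1 and 2. Of the 12 neutrophil genes 10 rose and 2 did not pass with edgeR, whereas 1.04% of all genes tested were called higher. The median log2 fold change of the 12 was 1.11, against 0.01 over all genes tested. S100a8 was among those that rose, at 20060 ± 797 CPM in MC38 and 10390 ± 375 CPM in control libraries (SD, n = 4 and 2, edgeR adjusted p = 0.00105). The S100a8 call did not hold in every alternative fit. S100a9 was at 17870 ± 1708 and 8011 ± 43.6 CPM (edgeR adjusted p = 0.00102). S100a8 and S100a9 together made up most of the summed list in both groups. Per 1000 CPM of the summed neutrophil list, Fpr1 was at 0.820 to 1.16 in MC38, against 0.526 and 0.832 in controls. On the same scale C5ar1 was at 1.64, 1.68, 2.57 and 2.6 in MC38, against 1.65 and 1.83 in controls. Fpr2, Ccr1 and Ltb4r1 overlapped between the groups as well. By contrast, 4 receptors without a called change were lower in every MC38 library relative to this list. The list itself was 2.06-fold higher in MC38, so any gene with little change of its own is lower on this scale. Cxcr2 was at 2.50 to 4.47 per 1000 in MC38, against 6.70 and 5.56 in controls, and Cxcr4 at 0.328 to 0.579, against 0.810 and 0.879. Ccr2 and Ptafr stood at 0.578 and 0.571 of their control means. These ratios are a description chosen after the values were seen, and the part of neutrophil transcripts in the receptor differences was not tested.

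**Figure D4:**
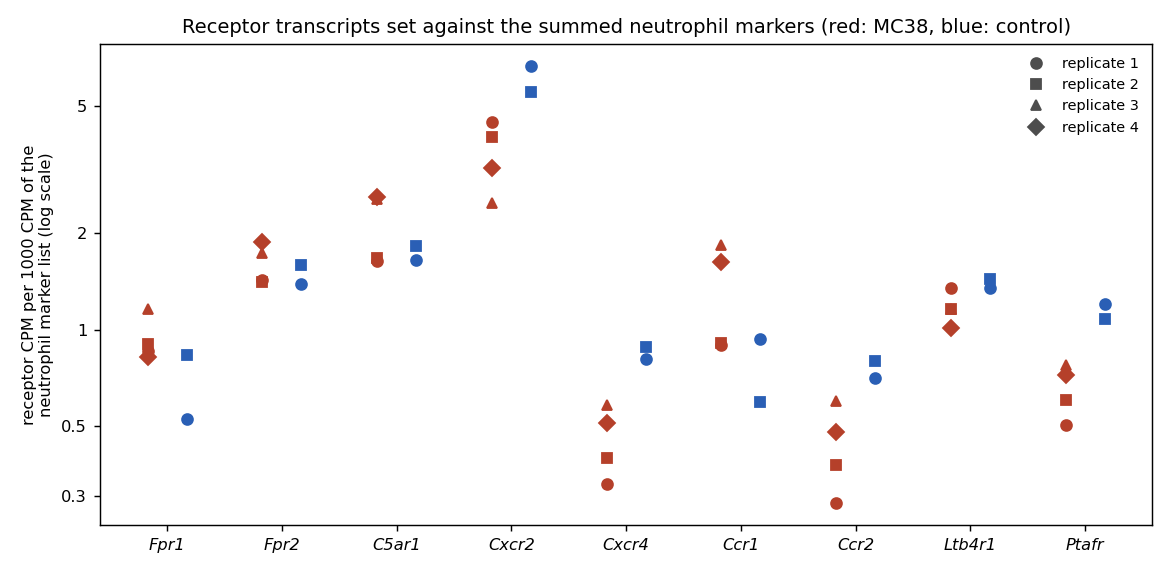
Receptor CPM per 1000 CPM of the summed neutrophil marker list (log axis) for 9 receptors, with MC38 libraries in red at the left of each pair and controls in blue at the right; symbols give the replicate. Fpr1, Fpr2, C5ar1, Ccr1 and Ltb4r1 overlap between the groups, whereas Cxcr2, Cxcr4, Ccr2 and Ptafr are lower in all MC38 libraries. Most of the list sum came from S100a8 and S100a9. The list itself was 2.06-fold higher in MC38, so a gene with little change of its own is lower on this scale.

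Other cell types can carry the same receptors. The 8 monocyte markers summed to 874 to 930.5 CPM in MC38 libraries, against 977 and 984 CPM in controls. Klf4, a transcription factor not confined to monocytes, was the 1 called lower and carried that direction, since the other 7 summed to 647 to 770.2 CPM in MC38, against 566 and 575 CPM in controls. The edgeR test called 0 of the 8 higher and 1 lower, against 1.04% and 0.569% of all genes tested. At an unadjusted p under 0.05, 3 were higher and 2 lower, against 9.26% and 8.22% of all genes. DESeq2 called 2 higher and 1 lower, against 2.95% and 1.83% of the genes it tested. With limma-voom 0 were higher and 1 lower, against 0.696% and 0.576%. Ly6c2, Cd14 and Irf8 were higher in every MC38 library, whereas Klf4 and F13a1 were lower in every MC38 library. Over all genes tested, 14.0% had every MC38 library above both controls, the share to set beside each gene named here as higher in every MC38 library. F13a1 was at 2.02 to 8.66 CPM in MC38, against 12.85 and 13.78 CPM in controls. The 8 macrophage genes summed to 42.0 to 67.4 CPM in MC38, against 19.1 and 31.3 CPM in controls. Of these the complement gene C1qa was called higher, at 2.96 to 5.38 CPM in MC38, against 0.084 and 0.248 CPM in controls (edgeR adjusted p = 0.0342). Its control values are 1 and 3 counts, and limma-voom called 0 of the macrophage genes. C1qb and C1qc were also higher in every MC38 library without passing, and Marco was at 0 in both groups. Dendritic cell genes summed to 1017 to 1161 CPM in MC38, against 927.5 and 1095 CPM in controls, mostly from Cst3, and without it to 173 to 182 CPM in MC38, against 118 and 152 CPM in controls. Siglech, a marker of plasmacytoid dendritic cells, was the 1 called gene there, 2.34-fold higher in MC38 (edgeR adjusted p = 0.013). T and NK cell genes summed to 397 to 439 CPM in MC38, against 415 and 484 CPM in controls, mostly from Nkg7, and without it to 51.1 to 70.7 CPM in MC38, against 27.2 and 31.3 CPM in controls. The edgeR test called 0 of these 8 in either direction (4 higher and 0 lower at an unadjusted p under 0.05, 3 higher by DESeq2, 0 by limma-voom), and Cd3d, Cd3g, Klrb1c and Gzmb were higher in every MC38 library. Nkg7 was at or below the lower control in every MC38 library, at 325.8 to 387.6 CPM, against 452.9 and 387.6 CPM in controls. Gzma was at 1.406 to 4.035 CPM in MC38, against 7.646 and 3.384 CPM in controls, with overlap. B and plasma cell genes summed to 506 to 653 CPM in MC38, against 584 and 619 CPM in controls. Of 5 tested basophil, mast cell and eosinophil genes, Mcpt8 and Prg2 were called lower, whereas 0.569% of all genes tested were. Cpa3 of the same list was at 25.4 to 35.9 CPM in MC38, against 23.9 and 23.7 CPM in controls, and the list summed to 37.5 to 57.3 CPM in MC38, against 119 and 134 CPM. Genes of these lists beyond the 2 most abundant were named, and the sums without 1 gene made, after the values were seen. Megakaryocyte and erythroid genes summed to 507 to 565 CPM in MC38, against 623 to 710 CPM, and stromal and endothelial genes to 99.9 to 112.5 CPM, against 81.5 to 95.9 CPM. The edgeR calls of Klf4, C1qa, Siglech, Mcpt8 and Prg2 did not hold in every alternative fit. The part of these cells in the receptor values was not tested.

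Protein and peptide ligands of the 10 receptors, 22 in number, gave 17 tested genes, of which 1 rose, 1 fell and 15 did not pass (median log2 fold change 0.66). Over all genes tested, 1.04% were called higher and 0.569% lower. At an unadjusted p under 0.05, 9 of the 17 were higher and 2 lower, against 9.26% and 8.22% of all genes. DESeq2 tested 21 of the 22 and called 8 higher and 1 lower, against 2.95% and 1.83% of the genes it tested. With limma-voom 4 were higher and 1 lower, against 0.696% and 0.576%. Ccl6, a Ccr1 ligand of myeloid cells, was at 344, 326, 328 and 325 CPM in the MC38 libraries, against 125 and 135 CPM in controls. It rose 2.54-fold (edgeR adjusted p = 0.000345, log2 fold change 1.35 with SE 0.11) and kept its call in every alternative, the highest adjusted p being 0.018. Ccl2, the main Ccr2 ligand, fell to 26.6, 25.0, 29.6 and 30.3 CPM in MC38, against 56.0 and 56.1 CPM in controls (edgeR adjusted p = 0.0205, log2 fold change -1.01 with SE 0.17). Leaving out either control ended that call (0.161 without the first, 0.108 without the second), as did leaving out MC38 replicate 2 (0.0847) or 4 (0.074). Anxa1, an Fpr2 ligand, was at 938 ± 123 and 592 ± 39.9 CPM in MC38 and control libraries (SD, n = 4 and 2; edgeR adjusted p = 0.0516), and Camp, the cathelicidin precursor that also yields an Fpr2 ligand, at 3668 ± 351 and 2331 ± 390 CPM (0.051). Cxcl2, a Cxcr2 ligand, was at 300 ± 30.5 CPM in MC38 and 167 ± 51.1 CPM in controls (edgeR adjusted p = 0.0552), and Cxcl12 at 11.6 ± 2.01 and 4.84 ± 1.24 CPM (0.122). Cxcl2 and Cxcl12 were named after their values were seen. Cxcl3 had 0, 8, 51 and 32 counts in MC38 libraries and 0 in both controls and did not pass (edgeR adjusted p = 0.231). With a floor of 3 counts set for the control group in place of 0, the MC38 level was 12.3-fold higher, or 7.6-fold without MC38 replicate 3. This ratio leaves out the spread between MC38 libraries, and MC38 replicate 1 had 0 counts, as had both controls.

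Enzymes that make or break down the lipid ligands did not pass as single genes. Of the 7, edgeR called 0 in either direction (3 higher and 0 lower at an unadjusted p under 0.05, against 9.26% and 8.22% of all genes). Over all genes tested, edgeR called 1.04% higher and 0.569% lower. DESeq2 called 1 of the 7 higher, against 2.95% of the genes it tested, and limma-voom 0, against 0.696%. Alox5ap, the 5-lipoxygenase activating protein, was at 424 ± 54.4 CPM in MC38 and 362.5 ± 16.3 CPM in control libraries (SD, n = 4 and 2; edgeR adjusted p = 0.430). Lta4h, the enzyme that forms leukotriene B4, was at 157 ± 7.36 and 164 ± 0.99 CPM (adjusted p = 0.850). Lpcat2, an enzyme that forms platelet-activating factor, was at 33.3 ± 6.40 CPM in MC38 and 13.2 ± 5.64 CPM in controls (edgeR adjusted p = 0.0672) and was named after its values were seen.

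Downstream of the receptors, 25 of 26 signalling genes were tested, and 1 rose, none fell and 24 did not pass (median log2 fold change 0.28). Over all genes tested, edgeR called 1.04% higher and 0.569% lower. At an unadjusted p under 0.05, 9 of the 25 were higher and 2 lower, against 9.26% and 8.22% of all genes. DESeq2 tested all 26 and called 7 higher and 0 lower, against 2.95% and 1.83% of the genes it tested. With limma-voom 1 was higher and 0 lower, against 0.696% and 0.576%. Fgr, a Src-family kinase of neutrophils and monocytes, was at 56.4, 54.9, 59.2 and 59.6 CPM in the MC38 libraries, against 33.4 and 19.8 CPM in controls. It rose 2.16-fold (edgeR adjusted p = 0.0449), a call lost without control replicate 2 (0.135), MC38 replicate 2 (0.111) or MC38 replicate 4 (0.133). Rac2, the GTPase that drives actin assembly in neutrophils, was at 578 ± 41.2 CPM in MC38 and 414 ± 8.90 CPM in controls (edgeR adjusted p = 0.0676). Gng5, a G protein gamma subunit, was at 601 ± 61.2 and 443.5 ± 34.0 CPM (0.121).

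None of the 14 genes that end receptor signalling, the arrestins, receptor kinases and RGS proteins, passed in either direction with edgeR, DESeq2 or limma-voom, and 2 were higher and 0 lower at an unadjusted edgeR p under 0.05. Of all genes, 9.26% were higher and 8.22% lower at that threshold. Rgs1 was at 1240 ± 247 CPM in MC38 and 1176 ± 2.89 CPM in control libraries (SD, n = 4 and 2; edgeR adjusted p = 0.873). Rgs2 was at 540 ± 51.1 and 630 ± 3.78 CPM (edgeR adjusted p = 0.366). Both are GTPase activators that switch off G protein subunits.

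Among 30 further receptors of the class, 16 were tested, and 2 rose, none fell and 14 did not pass (median log2 fold change 0.79). Over all genes tested, edgeR called 1.04% higher and 0.569% lower. At an unadjusted p under 0.05, 6 of the 16 were higher and 1 lower, against 9.26% and 8.22% of all genes. DESeq2 tested 21 of the 30 and called 3 higher and 0 lower, against 2.95% and 1.83% of the genes it tested. With limma-voom 0 were called in either direction, against 0.696% and 0.576%. Those that rose were Ccr7 and Ccr9. Ccr7, which guides cells into lymph nodes, was at 13.9, 15.5, 17.5 and 14.5 CPM in MC38 libraries, against 4.03 and 3.63 CPM in controls (edgeR adjusted p = 0.0166). Ccr9, which guides progenitors to the thymus, was at 15.2, 20.9, 25.4 and 19.2 CPM, against 6.64 and 2.89 CPM (0.0405). Both lost their calls without either control, without MC38 replicate 2 or 4, and with limma-voom, with adjusted p between 0.0633 and 0.138 in those fits. Ccrl2, a non-signalling binder of chemerin, was the most abundant, at 43.8, 68.2, 54.4 and 53.9 CPM in MC38 libraries, against 47.5 and 45.6 CPM in controls, with overlap (edgeR adjusted p = 0.578). No count was found in any of the 6 libraries for 9 of the 30, among them Ccr3, the eotaxin receptor, and Ccr1l1, a Ccr1-like gene.

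**Figure D5:**
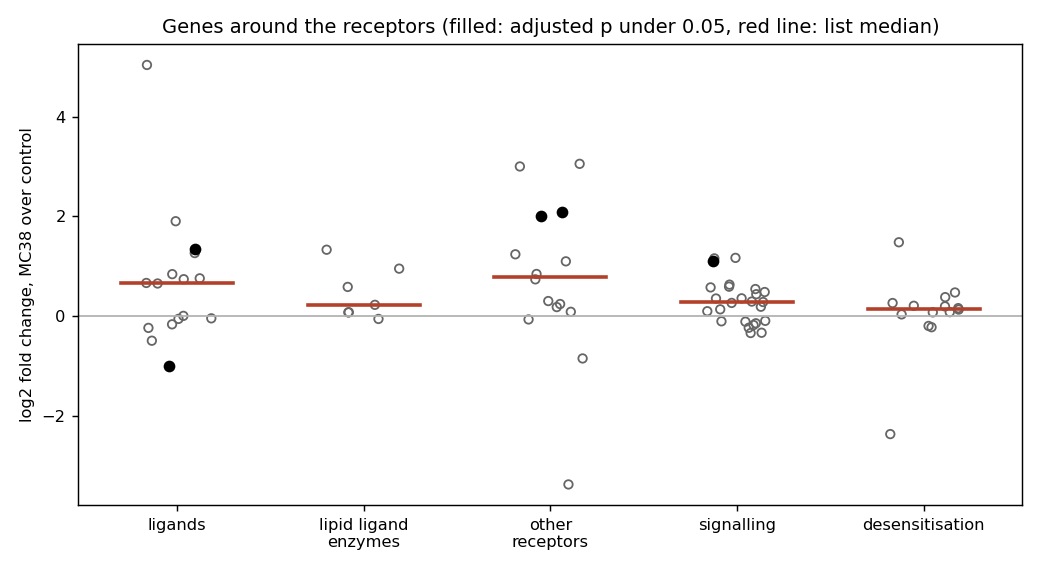
Fitted log2 fold change, MC38 over control, of every tested gene in the 5 lists around the receptors, leaving out Cxcl3 and Ackr4, which had no count in controls; filled points passed (edgeR adjusted p under 0.05), open points did not, and the red line is the list median. The 5 filled points are Ccl6 and Ccl2 among the ligands, Ccr7 and Ccr9 among the other receptors and Fgr in signalling.

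The genes most like the picked receptors were sought over the 6 libraries by Pearson's r of log2(CPM + 1), as a description. With the mean profile of Fpr1, Fpr2 and C5ar1, the closest of 10246 genes were Tmem140 (r = 0.996), Itgb2l (0.995), Mmp8 (0.994), Arl5b (0.993) and Gadd45a (0.992). Mmp8, the neutrophil collagenase, was at 397, 397, 472 and 480 CPM in MC38 libraries, against 159 and 170 CPM in controls. An r above 0.95 was reached by 155 genes, so many genes share this profile. For Cxcr4 the closest were Cd164 (r = 0.999), Herc3 (0.997) and Rgs18 (0.997), with 164 genes above 0.95. Cd164, a sialomucin of progenitor cells, was at 124, 149, 225 and 202 CPM in the MC38 libraries, against 143 and 159 CPM in controls, so it too was highest in replicates 3 and 4.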

How the data were processed

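RNA was sequenced from sorted HSCs, and the authors deposited raw read counts per Ensembl gene. Reads were trimmed, aligned and counted against mm10; the tools named in the submitters' processing notes are HTSeq 0.10.0, STAR 2.6.1 and Trim Galore 0.5.0. Neither annotation release nor strand setting is stated there, so reads of overlapping genes may be lost or misassigned, and PCR copies count as reads. Symbols, lengths and coordinates came from GENCODE M21 (GRCm38), which named 27728 of 28786 IDs.

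MC38 (4 libraries) and control (2) were compared in edgeR 4.0.16 under R 4.3.3 with TMM, filterByExpr, the robust quasi-likelihood test, no block and Benjamini-Hochberg adjustment over 14226 genes. The design had control column 3 left out. Adjusted p-values without a named tool are edgeR's. The code was tested on simulated data. Alternatives were DESeq2 1.42.0, limma-voom 3.58.1, DESeq2 size factors, no filter, all 7 columns, a replicate block and leaving out each library. Members and lists were chosen with earlier results of these data known. Named were all members, up to 6 called genes per list and the 2 most abundant. Cxcr1 and C5ar2 were added as neighbours after their values were seen, and for the marker lists only examples are named.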

Additional observations from a re-analysis of the deposited data

Results flagged for a closer look

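The summed level of the 30 further chemoattractant receptors had 1 MC38 library apart from the others. It was 120 CPM in MC38 replicate 1, against 155, 152 and 154 CPM in replicates 2, 3 and 4, a gap of 0.917 of the whole range, above Dixon's critical value for 4 samples. Of 27 groups of values examined in this way, this was the 1 that stood out, and chance gives about 1 in 20.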

How the results depend on the processing

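Of the receptors not picked, 2 were called higher with DESeq2 and with no filter (7 tested), 2 with all 7 columns and 0 with limma-voom (6 tested). With a library left out, 0 to 1 were called (6 tested, or 7 without control replicate 1). DESeq2 and no filter tested 21 ligands and 26 signalling genes. Ligands called higher numbered 8 with DESeq2, 2 with its size factors, 5 with no filter, 4 with limma-voom and 7 with all 7 columns, and 1 to 5 with a library left out; those called lower numbered 2 with all 7 columns and 0 to 1 with a library left out. Signalling genes called higher numbered 7 with DESeq2, 4 with no filter, 9 with all 7 columns and 0 to 2 with a library left out. Lipid enzymes called higher numbered 1 with DESeq2, no filter or all 7 columns, and 0 to 1 with a library left out. Other receptors called higher numbered 0 with limma-voom and 0 to 2 with a library left out. The difference in the Cxcr2 to Cxcr4 log2 ratio ran from -0.15 to 0.40 with a library left out. The labels share replicate numbers 1 and 2, and same-numbered libraries deviated together with r = 0.073 and -0.052. With only 2 controls, the deviations of control 1 mirror those of control 2. These r values therefore cannot decide whether the numbers are a pairing. With a replicate block anyway, 3 of the 6 receptors, 5 ligands, 1 lipid enzyme, 3 signalling genes and 1 desensitisation gene were called higher, Cxcr2 among the receptors (log2 0.57, adjusted p = 0.0212), Cxcr4 turned to -0.13 and Ccr2 to -0.10 (log2), and the Cxcr2 to Cxcr4 difference was 0.70. Over all genes, the share called higher was 1.05% with DESeq2 size factors, 1.41% with no filter, 5.74% with all 7 columns, 1.89% with the block and 0.291 to 1.86% with a library left out. The cause was not tested. Only 2 controls limit every fit.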
